A study of Mus musculus with 4 samples.

Results

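The collagen family was taken as every gene whose mouse symbol consists of Col, a number, the letter a and a number. It comprised 44 of the 55421 gene identifiers in the count tables. The libraries were made from total RNA of what the labels call macrophages of the islet, the hormone-secreting cell cluster of the pancreas, in wild-type (WT) C57BL/6 mice. There were 4 libraries, 2 for normal chow (NCD) and 2 for the high-fat diet (HFD), which is used to bring on obesity and insulin resistance. Every mouse carried the same genotype and strain, and diet was the only labelled difference. Per the labels' protocols, RNA came from frozen islets by TRIzol extraction. The sources used here do not give age, sex, the length of feeding, any pooling of animals or the way macrophages were separated from other islet cells. Nothing in the labels ties the libraries to separate animals, so the spread behind every p-value is that between libraries and may be technical only.

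Collagens are secreted or membrane-bound proteins in which chains wind into a triple helix. Fibrillar collagens form the tensile fibres of connective tissue, type IV collagen forms the sheet-like network of basement membranes, and type VI forms beaded filaments beside cells. Fibril-associated collagens with interrupted helices (FACIT) sit on the surface of fibres, multiplexins lie in or next to basement membranes, and transmembrane collagens stay anchored in the cell surface. In the pancreas, fibrillar collagens are made mainly by fibroblasts and stellate cells, and islet capillaries supply much of the basement membrane inside the islet.

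Libraries held 56740720 to 64490097 counts. CPM values are counts scaled to the library total, itself scaled between libraries by TMM. Pearson correlations of log2 CPM across genes were 0.976 and 0.977 within a diet and 0.937 between diets. The most abundant markers were not those of macrophages. The summed level of 11 macrophage markers was 1044 and 1007 CPM in NCD against 814 and 804 CPM in HFD. All 11 were counted in every library, and 2 were higher and 7 lower in HFD by the test given below. Of all genes tested, 17.9% were higher and 14.5% lower. The sum of 9 beta cell markers, insulin genes included, was 17551 and 18029 CPM in NCD against 13633 and 14269 CPM in HFD.

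The comparison asked how collagen transcripts differed between the diets. Collagen transcripts were higher in HFD as a family, from a summed level of 1738 and 1780.1 CPM on chow to 4477 and 4465 CPM in HFD, a 2.54-fold difference of the means. They took 0.176% ± 0.00299 of all counts in NCD against 0.447% ± 0.00177 in HFD (SD, n = 2). Mean sums in NCD and HFD were 128 and 1215 CPM for fibrillar genes, 1301 and 2087 CPM for basement membrane genes, and 136 and 755 CPM for beaded filament genes. Col3a1 was 23.8-fold, Col6a2 15.1-fold and Col1a1 13.5-fold higher, and the FACIT gene Col12a1 39.6-fold higher. The abundant basement membrane genes Col4a1 and Col4a2 rose by 1.74-fold and 1.46-fold, while Col6a6 and Col13a1 fell. In such bulk libraries, more cells of a type and more RNA per cell cannot be told apart.

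Of the 44 genes, 40 had enough counts to be tested, and 25 were higher and 2 lower in HFD in edgeR's quasi-likelihood test (threshold 0.05 on p after Benjamini-Hochberg adjustment). Among all 21563 genes tested, 17.9% were higher and 14.5% lower by the same rule. Of the collagen genes, 21 rose and 1 fell by 2-fold or more, against 10.02% and 1.33% of all genes tested. The median log2 change of the tested members was 1.38, and that of all genes tested was 0.00257. In 28 tested members both HFD libraries lay above both NCD libraries and in 4 (Col6a6, Col13a1, Col4a4 and Col8a2) both lay below, against 34.5% and 33.2% of all genes tested. The members Col4a6, Col17a1, Col23a1 and Col24a1 reached 10 counts per library in HFD only, so they entered the test through the diet in which they were high. The members that could not be tested were Col9a1, Col10a1, Col11a1 and Col19a1.

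**Figure D1:**
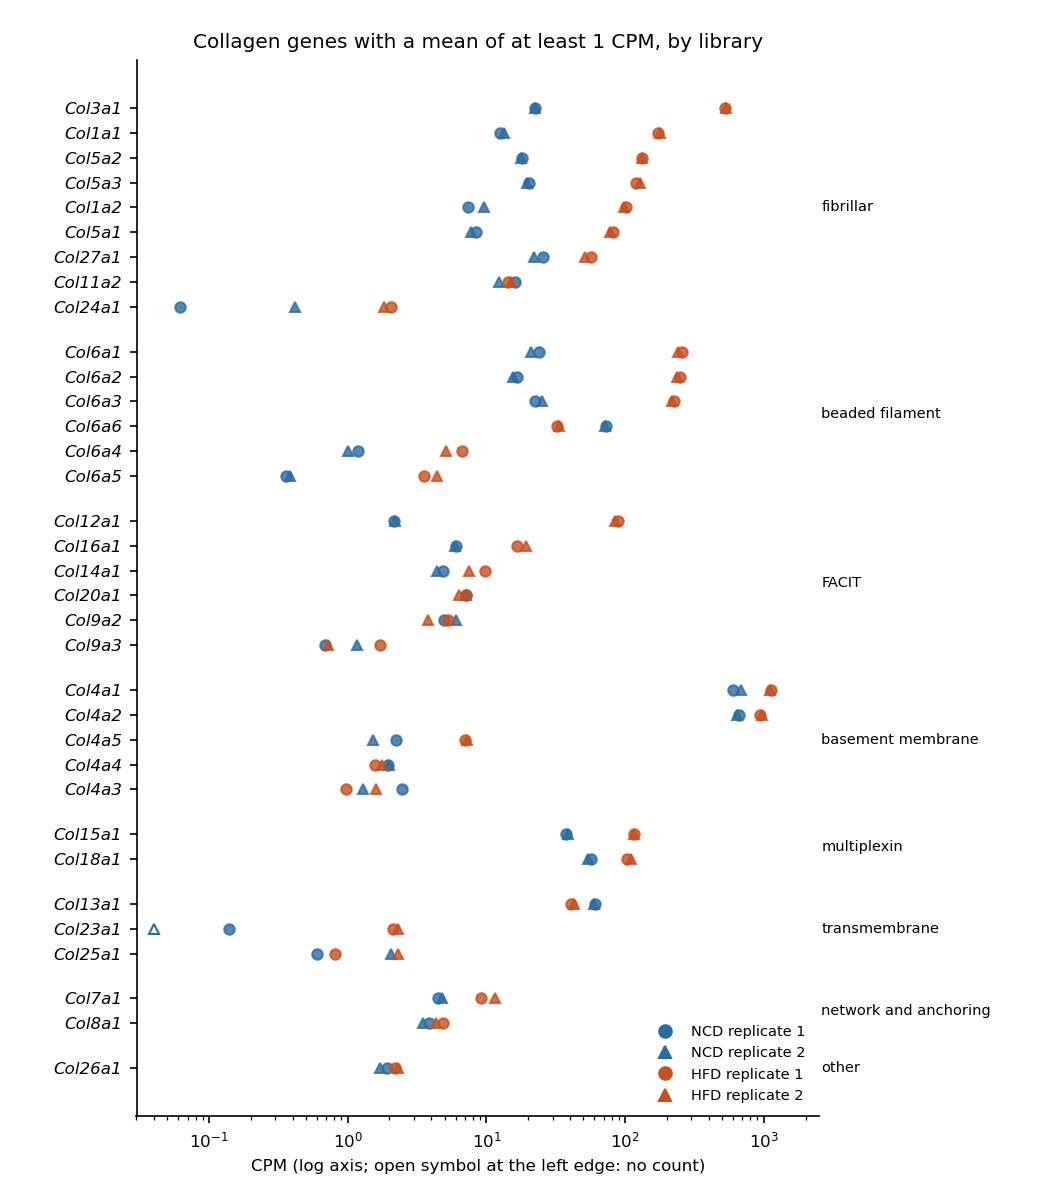
CPM (log axis) of the 34 collagen genes that averaged 1 CPM or more over the libraries, by class, with each library as 1 point (blue, NCD; orange, HFD; circle, replicate 1; triangle, replicate 2). Libraries of a diet lie close together for the abundant genes, and Col3a1 moves from about 22 CPM in both NCD libraries to 527 and 537 CPM in HFD.

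Stretches just before the transcription start are shown for 4 members that rose and 1 that fell, chosen after their values were seen among the windows that hold no annotated exon. Col3a1, Col5a1, Col6a3 and Col6a5 rose by 9.34-fold or more each, and Col13a1 fell. The sequences are the 250 bases before the start in RefSeq's annotation of GRCm38.p6, read 5′ to 3′ on the gene's own strand, with each match to a searched motif in capitals.
Col3a1, plus strand, chr1:45311288-45311537: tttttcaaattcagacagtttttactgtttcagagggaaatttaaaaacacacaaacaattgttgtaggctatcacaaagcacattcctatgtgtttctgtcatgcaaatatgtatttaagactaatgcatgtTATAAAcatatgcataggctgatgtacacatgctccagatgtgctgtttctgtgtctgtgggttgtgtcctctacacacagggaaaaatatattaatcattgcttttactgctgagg
Col5a1, plus strand, chr2:27886175-27886424: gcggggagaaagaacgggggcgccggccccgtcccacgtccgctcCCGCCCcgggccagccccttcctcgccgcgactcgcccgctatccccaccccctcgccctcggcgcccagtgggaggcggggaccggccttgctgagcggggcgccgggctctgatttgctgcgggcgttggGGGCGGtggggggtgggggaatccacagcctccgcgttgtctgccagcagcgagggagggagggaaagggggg
Col6a3, minus strand, chr1:90843972-90844221: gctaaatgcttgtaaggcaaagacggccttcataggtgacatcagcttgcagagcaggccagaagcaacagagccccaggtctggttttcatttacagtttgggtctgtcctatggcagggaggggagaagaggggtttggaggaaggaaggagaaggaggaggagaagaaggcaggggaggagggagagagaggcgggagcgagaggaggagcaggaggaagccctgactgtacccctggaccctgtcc
Col6a5, minus strand, chr9:105960644-105960893: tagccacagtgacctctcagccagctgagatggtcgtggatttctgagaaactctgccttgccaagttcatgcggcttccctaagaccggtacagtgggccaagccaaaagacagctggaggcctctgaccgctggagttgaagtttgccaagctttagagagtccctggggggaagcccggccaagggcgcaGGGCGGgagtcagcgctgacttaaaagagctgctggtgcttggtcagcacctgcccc
Col13a1, minus strand, chr10:61979109-61979358: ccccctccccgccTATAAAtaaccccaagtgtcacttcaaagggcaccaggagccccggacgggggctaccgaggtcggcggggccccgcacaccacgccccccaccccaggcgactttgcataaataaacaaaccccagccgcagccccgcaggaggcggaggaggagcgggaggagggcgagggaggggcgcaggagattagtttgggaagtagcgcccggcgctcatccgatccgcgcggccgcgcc
Motifs searched on both strands were CCAAT, the GC box GGGCGG, the TATA box TATAAA and the AP-1 site TGANTCA, and no matches overlapped in these 5 stretches. The Col3a1 stretch held 1 TATAAA, from 117 to 112 bases before the start, and that of Col13a1 held 1 TATAAA, from 237 to 232 bases before it. Col5a1 held 2 GC boxes and Col6a5 held 1, and the Col6a3 stretch held none of these letters. Stretches of 35 of the 44 genes were used, with 38 starts in all, and those of Col1a1, Col2a1, Col4a3, Col5a2, Col9a3, Col12a1, Col14a1, Col22a1 and Col26a1 were not analysed here. GGGCGG stood in 57.9% of the 38 collagen stretches and in 32.7% of all 32851 stretches of that length. For CCAAT the shares were 34.2% and 33.8%, for TATAAA 13.2% and 12.4%, and for TGANTCA 2.63% and 6.75%. A match in this window describes its letters only.

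Fibrillar collagens went from a summed 131 and 125 CPM on chow to 1208 and 1221 CPM in HFD, 9.46-fold higher. Of the 11 genes, 10 were tested, 8 rose and none fell, beside 17.9% higher and 14.5% lower of all genes tested. Among the 8, Col24a1 reached 10 counts per library in HFD only. Col3a1 encodes the chain of type III collagen, a fibre of soft and healing tissue. It stood at 22.4 and 22.2 CPM in NCD and at 527 and 537 CPM in HFD, a log2 change of 4.57 ± 0.05 (SE from the fit; edgeR adjusted p = 5.25e-06). Its diets did not overlap, and it took the most counts of the class in HFD. Without it, the remaining fibrillar genes were 6.44-fold higher. The type I collagen of most fibres is built from the products of Col1a1 and Col1a2. Col1a1 stood at 12.6 and 13.4 CPM in NCD and at 172 and 179.8 CPM in HFD (log2 change 3.76 ± 0.07, edgeR adjusted p = 1.86e-05). Col1a2 stood at 7.32 and 9.58 CPM in NCD and at 102 and 97.9 CPM in HFD (log2 change 3.56 ± 0.14). Both type I genes thus rose, with every HFD library above every NCD library.

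Type V collagen starts fibres and sets their width, and its 3 genes rose as well. Col5a1 stood at 8.45 and 7.72 CPM in NCD and at 81.4 and 78.4 CPM in HFD (log2 change 3.30 ± 0.08). Col5a2 stood at 18.2 and 17.7 CPM in NCD and at 133 and 133 CPM in HFD (log2 change 2.89 ± 0.06). Col5a3, whose chain joins a less common form of type V, stood at 20.4 and 19.6 CPM in NCD and at 119.8 and 127 CPM in HFD (log2 change 2.63 ± 0.07). The highest edgeR adjusted p of these 3 genes was 3.86e-05. Col27a1, a fibrillar gene best known from cartilage, rose less, from 25.7 and 22.1 CPM to 56.7 and 51.4 CPM (log2 change 1.18 ± 0.10). Col24a1 was rare, with 4 and 26 counts in NCD against 128 and 103 counts in HFD (0.0620, 0.418, 2.07 and 1.82 CPM). Its call (edgeR adjusted p = 0.0359) was lost without either HFD library (0.106 and 0.0913), with a replicate block (0.0527) and without the count filter (0.0532). Col11a2, a cartilage-type chain, stood at 16.03 and 12.3 CPM in NCD and at 14.3 and 15.1 CPM in HFD, with overlapping diets and a log2 change of 0.05 ± 0.16. The main cartilage collagen gene Col2a1 was at 0.129 to 0.279 CPM across libraries, and Col11a1 at 0 to 0.141 CPM.

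Beaded filament genes of type VI moved in opposite directions, with 5 of 6 higher and Col6a6 lower. By the same test, 17.9% of all genes tested were higher and 14.5% lower. The class went from 137 and 135 CPM on chow to 774 and 736 CPM in HFD, 5.56-fold higher. Type VI collagen is assembled from the products of Col6a1 and Col6a2 with a further chain, for which Col6a3 is the common gene. Col6a1 stood at 23.9 and 20.9 CPM in NCD and at 256 and 239 CPM in HFD (log2 change 3.46 ± 0.09, edgeR adjusted p = 3.86e-05). Col6a2 stood at 16.7 and 15.5 CPM in NCD and at 249 and 237 CPM in HFD (log2 change 3.92 ± 0.07). Col6a3 stood at 22.3 and 25.2 CPM in NCD and at 227 and 217 CPM in HFD (log2 change 3.22 ± 0.08). The diets did not overlap in any of these 3 genes. The remaining genes, Col6a4, Col6a5 and Col6a6, encode chains that can stand in for that of Col6a3, and lie side by side on chromosome 9 on the same strand. Col6a4 rose from 1.18 and 0.997 CPM to 6.68 and 5.10 CPM (log2 change 2.44 ± 0.25), and Col6a5 from 0.357 and 0.386 CPM to 3.55 and 4.43 CPM (log2 change 3.42 ± 0.29). Col6a6 had the highest level of the type VI genes per kb of exon in NCD. It was at 72.7 and 71.6 CPM, and stood at 32.2 and 33.5 CPM in HFD. It fell by 1.13 ± 0.06 on the log2 scale (edgeR adjusted p = 0.000245), and both HFD libraries lay below both NCD libraries. Col6a6 shares 63 exonic bases with Gm38314 and Col6a4 shares 289 exonic bases with Gm47575 and Gm36993, all on the opposite strand, and the sources used here do not say whether counting used strand. Other called members that share exonic bases with another gene are Col3a1 (141, with Gm47302 on the same strand), Col7a1 (36, with Mir711 on the same strand) and, with genes on the opposite strand, Col5a1 (212), Col4a2 (65), Col4a1 (22) and Col15a1 (14).

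**Figure D2:**
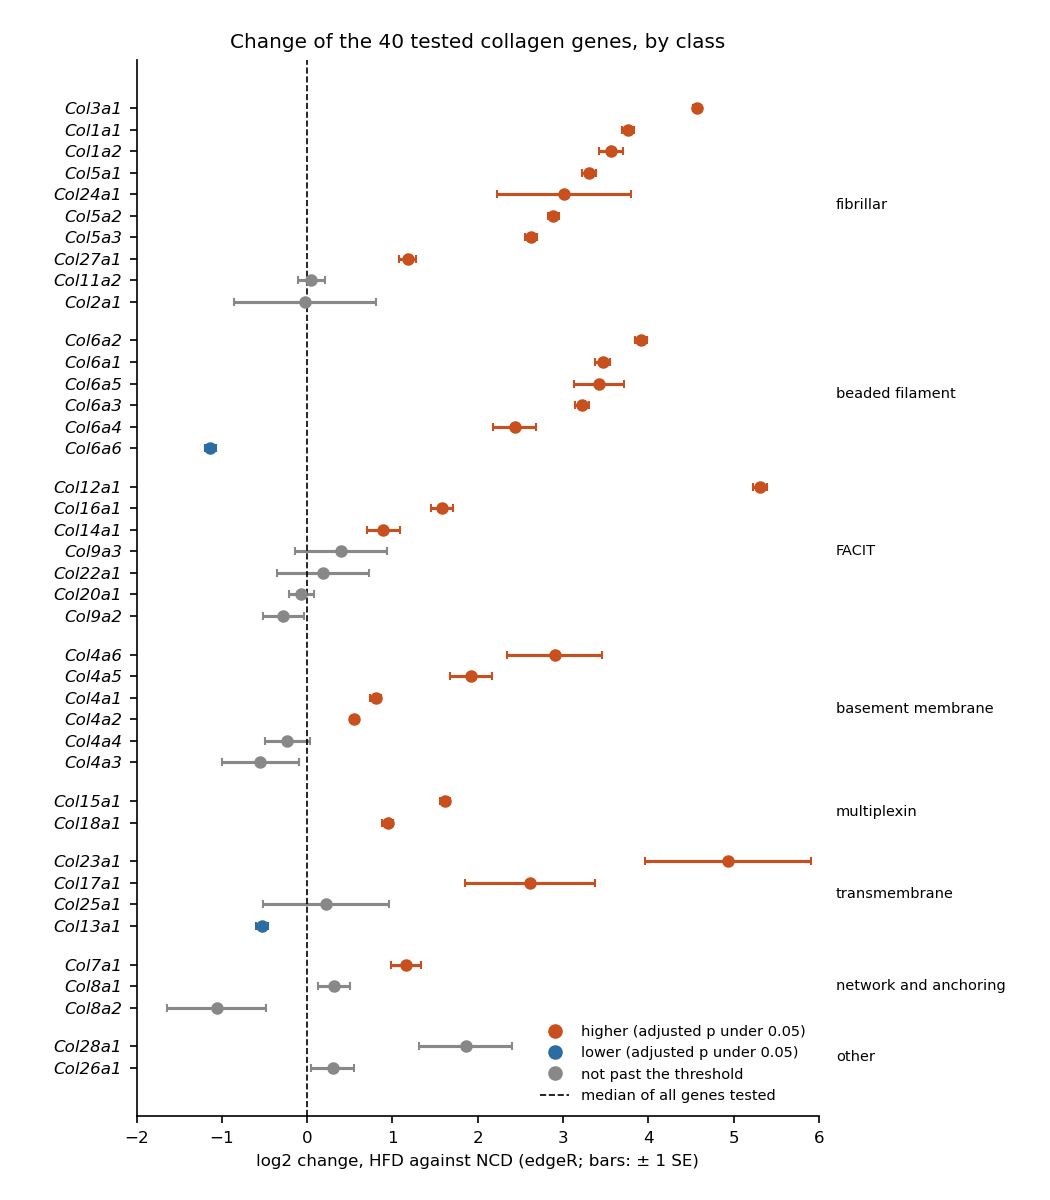
Log2 change of HFD against NCD for the 40 tested collagen genes, grouped by class, with bars of ± 1 SE (orange, higher; blue, lower; grey, not past the threshold) and a dashed line at the median of all genes tested. Col12a1 lies farthest right at 5.31, and Col6a6 (-1.13) and Col13a1 (-0.53) are the 2 members that passed the test as lower.

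Among the 9 fibril-associated genes, 7 were tested, 3 rose and none fell, beside 17.9% higher and 14.5% lower of all genes tested. The class sum went from 26.4 and 27.4 CPM on chow to 129 and 122 CPM in HFD, most of which was Col12a1. Col12a1 encodes a long chain that links fibres to their surroundings and is typical of tissue under tension. It stood at 2.17 and 2.19 CPM in NCD and at 88.4 and 84.3 CPM in HFD, a log2 change of 5.31 ± 0.08 (edgeR adjusted p = 1.36e-05). Without Col12a1 the class was 1.60-fold higher. Col16a1 rose from 6.06 and 5.92 CPM to 16.6 and 19.2 CPM (log2 change 1.58 ± 0.13). Col14a1, whose product binds fibres in mature connective tissue, rose from 4.88 and 4.44 CPM to 9.80 and 7.49 CPM (log2 change 0.89 ± 0.19, edgeR adjusted p = 0.0195). Leaving out either NCD library (adjusted p = 0.0521 and 0.0745) or HFD replicate 1 (0.0810) ended that call. Col20a1, which shares 79 exonic bases with BX649560.1, stood at 7.08 and 7.11 CPM in NCD and at 7.17 and 6.37 CPM in HFD. The cartilage gene Col9a2 stood at 4.93 and 6.08 CPM in NCD and at 5.30 and 3.76 CPM in HFD. Its partner Col9a3, which shares 234 exonic bases with Tcfl5 on the other strand, stood at 0.682 and 1.16 CPM in NCD and at 1.70 and 0.724 CPM in HFD. In Col20a1, Col9a2 and Col9a3 the diets overlapped, with edgeR adjusted p of 0.780, 0.433 and 0.633. Col22a1 ranged from 0.402 to 0.618 CPM and Col19a1 from 0 to 0.129 CPM. Col9a1 had no count in any library, which allows a level of up to 0.212 CPM in the shallowest library (12 counts, or 3 steps of the 4-count spacing described below; counting error only).

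Type IV collagen took the most counts of any class in both diets, at 1275 and 1327 CPM in NCD against 2083 and 2090.5 CPM in HFD, 1.60-fold higher. Of its 6 genes, 4 rose and none fell. Col4a1 and Col4a2 encode the chains of ordinary basement membrane, found beneath endothelium. Col4a1 stood at 603 and 679 CPM in NCD and at 1126 and 1109.9 CPM in HFD (log2 change 0.80 ± 0.06, edgeR adjusted p = 0.000594). Col4a2 stood at 665 and 643 CPM in NCD and at 946 and 969 CPM in HFD (log2 change 0.55 ± 0.04, edgeR adjusted p = 0.000394). The diets did not overlap in either gene. Col4a5, whose chain serves kidney and smooth muscle basement membranes, rose from 2.23 and 1.53 CPM to 7.04 and 7.20 CPM (log2 change 1.92 ± 0.24). Its head-to-head neighbour Col4a6 had 8 and 20 counts in NCD against 118 and 82 counts in HFD (log2 change 2.90 ± 0.56), and its call (edgeR adjusted p = 0.0132) was lost without HFD replicate 1 (0.0671). Col4a3 and Col4a4 encode chains of the kidney glomerulus and were not called (edgeR adjusted p of 0.415 and 0.564). Col4a3 stood at 2.45 and 1.29 CPM in NCD and at 0.969 and 1.59 CPM in HFD, and shares 563 exonic bases with C430014B12Rik on the other strand. Col4a4 stood at 1.94 and 1.98 CPM in NCD and at 1.57 and 1.77 CPM in HFD.

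Both multiplexins rose. Col15a1, whose product bridges basement membranes and fibres, went from 37.4 and 38.5 CPM to 117 and 116 CPM (log2 change 1.62 ± 0.06, edgeR adjusted p = 6.86e-05). Col18a1, the precursor of the angiogenesis inhibitor endostatin, went from 56.9 and 54.1 CPM to 103 and 111 CPM (log2 change 0.95 ± 0.07). Transmembrane genes split. Col13a1, known from the neuromuscular junction, made up nearly all of the class in NCD and fell from 61.1 and 59.6 CPM to 40.5 and 43.03 CPM (a log2 change of -0.53 ± 0.07, edgeR adjusted p = 0.00317). The class sum stood at 61.9 and 61.8 CPM in NCD and at 44.3 and 48.1 CPM in HFD, and without Col13a1 at 0.806 and 2.20 CPM in NCD and at 3.76 and 5.05 CPM in HFD. This remainder was 2.93-fold higher in HFD, 2.00-fold without NCD replicate 1 and 5.47-fold without NCD replicate 2, and Col23a1 and Col17a1 within it were tested only through their HFD counts. Col23a1 had 9 and 0 counts in NCD against 131 counts in each HFD library (0.140, 0, 2.12 and 2.31 CPM; log2 change 4.93 ± 0.98). Both NCD counts lie under the floor of 12 counts, and the fitted change was 10.06 without NCD replicate 1 and 3.96 without NCD replicate 2, so its size is not determined. Its call (edgeR adjusted p = 0.0146) was lost without HFD replicate 2 (0.0543). Col17a1, a hemidesmosome gene of epithelia, had 4 and 9 counts in NCD against 52 and 25 counts in HFD. Its edgeR adjusted p of 0.0491 lay just under the threshold and rose to between 0.0712 and 0.329 when any 1 library was left out. Its adjusted p was 0.115 with a replicate block, 0.0700 without the count filter and 0.0609 in limma-voom. Col25a1, a neuronal gene, stood at 0.605 and 2.06 CPM in NCD and at 0.807 and 2.30 CPM in HFD, so that its replicates differed more than its diets.

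Of the 4 network and anchoring genes, 3 were tested and 1 rose, beside 17.9% of all genes tested. Col7a1, which forms the fibrils that tie epithelium to its bed, went from 4.50 and 4.78 CPM to 9.19 and 11.6 CPM (log2 change 1.16 ± 0.17, edgeR adjusted p = 0.00584). Col8a1, a gene of vessel walls, stood at 3.86 and 3.51 CPM in NCD and at 4.83 and 4.31 CPM in HFD (edgeR adjusted p = 0.276). Its partner Col8a2 ranged from 0.258 to 0.992 CPM and Col10a1, the growth plate collagen, from 0 to 0.0807 CPM. The 2 genes outside these classes did not pass the test. Col26a1 stood at 1.91 and 1.72 CPM in NCD and at 2.18 and 2.30 CPM in HFD. Col28a1, expressed around peripheral nerve glia, had 35 and 13 counts in NCD against 90 and 73 counts in HFD (log2 change 1.86 ± 0.55, edgeR adjusted p = 0.0513). DESeq2 and limma-voom called Col28a1 higher (adjusted p = 0.00388 and 0.0379), as did edgeR on counts divided by 4 (0.0339) and without NCD replicate 1 (0.0216).

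**Figure D3:**
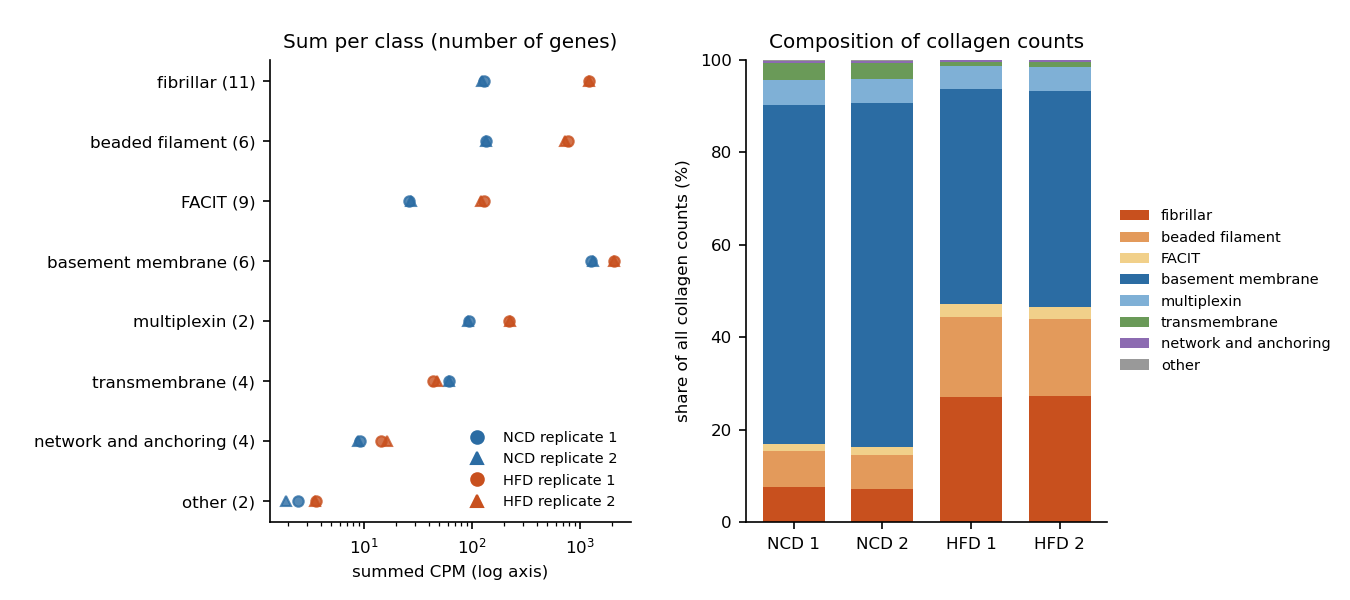
Left, summed CPM of each collagen class (log axis), with 1 point per library (blue, NCD; orange, HFD). Right, the share of each class in all collagen counts of a library. The basement membrane share is 73.4% and 74.6% in NCD and 46.5% and 46.8% in HFD, and the fibrillar share is 7.56% and 7.05% in NCD and 27.0% and 27.4% in HFD.

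The composition of collagen transcripts differed with diet. Basement membrane genes made up 74.0% ± 0.851 of collagen counts in NCD against 46.7% ± 0.196 in HFD (SD, n = 2). Fibrillar genes made up 7.30% ± 0.362 and 27.2% ± 0.258, and beaded filament genes 7.72% ± 0.232 and 16.9% ± 0.568. The transmembrane share was 3.52% ± 0.0639 in NCD and 1.03% ± 0.0615 in HFD, and that of multiplexins was 5.32% ± 0.158 and 4.99% ± 0.127. With 2 libraries per diet, an exact two-sided permutation test of such a share cannot give a p below 0.333. Longer genes collect more counts, so these shares are of counts and not of molecules.

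Levels of different genes were compared as CPM per kb of annotated exon (mean ± SD, n = 2). In NCD, Col4a2 (98.8 ± 2.36 CPM per kb) and Col4a1 (85.9 ± 7.21) stood far above Col13a1 (13.1 ± 0.231). Col18a1 (7.91 ± 0.276) and Col6a6 (7.87 ± 0.0828) came next and did not differ beyond their spread on this scale. Against the length of the longest transcript, Col18a1 (9.92 ± 0.346) stood above Col6a6 (8.21 ± 0.0864). In HFD, Col4a1 (149.8 ± 1.54) and Col4a2 (145 ± 2.44) were followed by Col6a1 (56.5 ± 2.65), Col3a1 (54.2 ± 0.741), Col6a2 (29.2 ± 1.04) and Col1a1 (26.8 ± 0.807). Col6a1 and Col3a1 did not differ beyond their spread on this scale. Against the length of the longest transcript, Col3a1 (95.6 ± 1.31 CPM per kb) stood above Col6a1 (60.3 ± 2.83). From NCD to HFD, Col3a1 moved from rank 9 to rank 4 among the 44 genes per kb of exon, Col13a1 from rank 3 to rank 13 and Col6a6 from rank 5 to rank 17. By the longest transcript, Col3a1 moved from rank 8 to rank 3, and the ranks of Col13a1 and Col6a6 were the same.

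**Figure D4:**
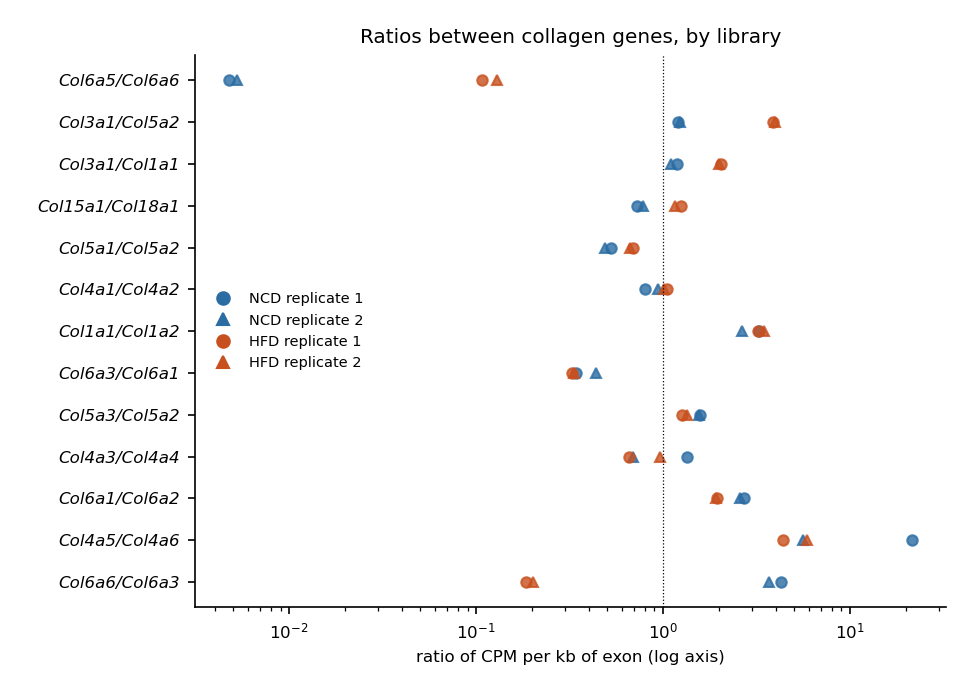
Ratio of CPM per kb of exon between pairs of collagen genes (log axis), with 1 point per library (blue, NCD; orange, HFD) and a dotted line at equal levels. Col6a6 lies above Col6a3 in NCD (4.25 and 3.71) and below it in HFD (0.186 and 0.202), while Col4a1/Col4a2 stays between 0.804 and 1.06.

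Ratios between collagen genes, several of whose chains assemble into 1 molecule, were taken per library. Col1a1 exceeded Col1a2 by 3.26 and 2.65 in NCD and by 3.21 and 3.48 in HFD per kb of exon, and the diets overlapped. By the longest transcript these ratios were 1.55, 1.26, 1.53 and 1.66. Col4a1/Col4a2 was 0.804 and 0.937 in NCD and 1.06 and 1.02 in HFD, with HFD above. Col6a1/Col6a2 was 2.72 and 2.58 in NCD and 1.95 and 1.92 in HFD, with HFD below. By the longest transcript it was 1.71 and 1.62 in NCD and 1.23 and 1.21 in HFD. Col3a1/Col1a1 rose from 1.19 and 1.11 in NCD to 2.04 and 2.00 in HFD, and Col15a1/Col18a1 from 0.728 and 0.786 to 1.25 and 1.16. The largest shift of the 13 ratios computed was in the alternative type VI chains. Col6a6/Col6a3 was 4.25 and 3.71 in NCD and 0.186 and 0.202 in HFD, and Col6a5/Col6a6 was 0.00478 and 0.00525 in NCD and 0.107 and 0.129 in HFD. Each ratio without overlap has an exact permutation p of 0.333, the smallest this design allows.

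Several collagen genes lie next to each other in the genome (GRCm38). Col4a1 (chr8:11198423-11312826, minus strand) and Col4a2 (chr8:11312805-11449287, plus strand) start head to head with their first exons overlapping by 22 bases. Both rose. The head-to-head pair Col4a6 and Col4a5 on chromosome X, 1308 bases apart, also rose, and the pair Col4a4 and Col4a3 on chromosome 1, 71 bases apart, did not pass the test in either gene. Col3a1 (chr1:45311538-45349706) and Col5a2 (chr1:45374321-45503282) face each other 24614 bases apart and both rose, yet Col3a1/Col5a2 went from 1.21 and 1.23 in NCD to 3.87 and 3.96 in HFD. Col6a2 and Col6a1 follow each other on chromosome 10 and rose together. On chromosome 9, Col6a6 (chr9:105687809-105828160) fell while Col6a5 (chr9:105856078-105960643), 27917 bases away, rose.

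Genes that modify, process, bind and degrade collagen were counted over lists of textbook roles. Beside the counts in these lists, 17.9% of all 21563 genes tested were higher in HFD and 14.5% lower. Of 19 genes of chain modification and folding, 11 rose and 1 fell, with a median log2 change of 0.37. Plod2, the lysyl hydroxylase that acts on the chain ends used for cross-links, rose from 11.4 and 11.6 CPM to 81.6 and 80.5 CPM (edgeR adjusted p = 3.86e-05). Serpinh1, the collagen chaperone HSP47, stood at 57.6 and 64.03 CPM in NCD and at 214 and 120.3 CPM in HFD (edgeR adjusted p = 0.0110), with a wide gap between the HFD libraries. P4ha1, a catalytic subunit of prolyl hydroxylase, rose from 214 and 213 CPM to 277 and 274 CPM (edgeR adjusted p = 0.00201). Its partner P4hb, also a general folding enzyme, stood at 899.8 and 922 CPM in NCD and at 852 and 853 CPM in HFD (edgeR adjusted p = 0.0770). DESeq2 and limma-voom called P4hb lower (adjusted p = 0.00917 and 0.0429). The gene that fell was Mia3, which exports bulky cargo such as collagen from the endoplasmic reticulum, at a mean of 476 CPM in NCD against 305 CPM in HFD.

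Of 13 genes of propeptide removal and cross-linking, 12 were tested and 10 rose, with a median log2 change of 2.50 and none lower. Among the 10, Tll1 (5 and 36 counts in NCD) reached 10 counts per library in HFD only. Lox, the lysyl oxidase that starts cross-linking, rose from 0.837 and 1.09 CPM to 17.4 and 16.4 CPM (log2 change 4.13 ± 0.19). Loxl2, its relative, rose from 18.2 and 18.3 CPM to 65.7 and 62.5 CPM. Bmp1, which removes the C-terminal propeptide, rose from 57.6 and 52.1 CPM to 95.8 and 88.6 CPM, and its enhancer Pcolce from 3.46 and 3.84 CPM to 15.6 and 17.4 CPM. The highest edgeR adjusted p of these 4 genes was 0.00171.

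Of 10 collagen receptors, 9 were tested and 5 rose. The receptor kinase gene Ddr2, a mesenchymal sensor of fibrillar collagen, rose from 20.9 and 22.1 CPM to 127 and 127 CPM (edgeR adjusted p = 3.86e-05). Its epithelial relative Ddr1 stood at 115 and 118 CPM in NCD and at 107 and 121 CPM in HFD, with overlapping diets. The integrin genes Itgb1 and Itga1 rose, from 470 and 498 CPM to 648 and 644 CPM and from 22.6 and 22.1 CPM to 39.8 and 41.2 CPM (edgeR adjusted p = 0.00155 and 0.000943). Mrc2, an uptake receptor for collagen fragments, rose from 4.70 and 4.23 CPM to 47.6 and 46.4 CPM. All 7 genes of collagen degradation rose, with a median log2 change of 1.87. Mmp14, a membrane-bound collagenase, went from 74.3 and 74.2 CPM to 195 and 201 CPM, and the gelatinase gene Mmp2 from 7.16 and 7.44 CPM to 28.0 and 37.5 CPM. Ctsk, a lysosomal collagenase, went from 4.03 and 4.61 CPM to 11.4 and 11.8 CPM. The highest edgeR adjusted p of Mmp14, Mmp2 and Ctsk was 0.00168.

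**Figure D5:**
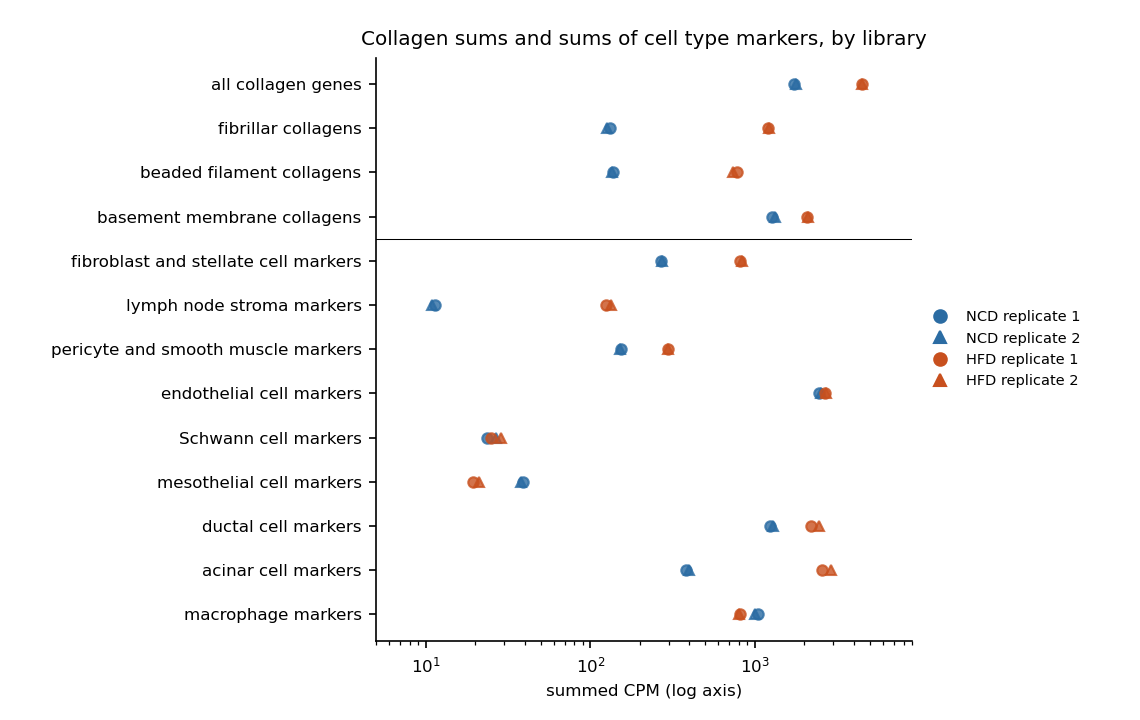
Summed CPM per library (log axis) of collagen genes and of marker lists for cell types that an islet preparation can hold (blue, NCD; orange, HFD). Fibroblast and stellate cell markers stand at 269.7 and 274 CPM in NCD against 814 and 833 CPM in HFD, and endothelial markers at 2442 and 2503 CPM and 2675 and 2691 CPM.

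Fibroblast and stellate cell markers were counted beside the collagens. Of the 14 markers, none of them a collagen, 11 rose and none fell. Among the 11, Fbln1 (6 and 12 counts in NCD) reached 10 counts per library in HFD only. The median log2 change of the markers was 2.84, beside 2.95 for the tested fibrillar genes and 3.32 for beaded filament genes. The 14 markers summed to 269.7 and 274 CPM on chow and to 814 and 833 CPM in HFD, 3.03-fold higher. Most of the NCD sum was Serping1, at 169 and 173 CPM in NCD against 225 and 225 CPM in HFD. The ratio of summed collagen to summed fibroblast markers was 6.44 and 6.51 in NCD and 5.50 and 5.36 in HFD. Type IV genes made up 74.0% of that collagen sum in NCD and 46.7% in HFD. Fibrillar genes alone were 9.46-fold higher in HFD. Of the 7 markers of lymph node stroma, 6 were in the tables and all of these rose, from a sum of 11.5 and 10.9 CPM to 125 and 133 CPM. Of these, Ccl19, Ccl21a, Madcam1 and Cxcl13 did not reach 10 counts in both NCD libraries and entered the test through HFD, where they were high. Ccl19 and Ccl21a had no count in NCD, which allows a level of up to 0.186 and 0.193 CPM in those libraries (12 counts). In HFD, Ccl19 stood at 0.662 and 0.883 CPM and Ccl21a at 10.5 and 3.58 CPM. Pericyte and smooth muscle markers rose in 6 of 9 genes, with a sum of 154 and 151 CPM in NCD against 295 and 294 CPM in HFD. Endothelial markers rose in 5 and fell in 3 of 10 genes, and their sum was 1.09-fold higher in HFD, where that of Col4a1 with the other type IV genes was 1.60-fold higher. That endothelial sum joins opposite changes. Esm1, its largest member in NCD, fell from a mean of 572 to 438 CPM, and Kdr and Flt1 fell as well. Of the 5 that rose, Pecam1 went from a mean of 271 to 446 CPM and Cdh5 from 291 to 449 CPM. Vwf had the largest log2 change of these markers (2.27), from a mean of 14.8 to 71.4 CPM, and Tek and Tie1 rose as well. Schwann cell markers stood at a sum of 23.4 and 26.7 CPM in NCD against 25.03 and 28.7 CPM in HFD, beside the change of Col28a1. Acinar markers rose in all 11 genes, from a sum of 384 and 399 CPM to 2566 and 2901 CPM. Among them, Ptf1a (no count in NCD) and Rbpjl (4 and 0 counts in NCD) entered the test through HFD, where they were high. Ductal markers rose in 4 and fell in 1 of 7 genes. Mesothelial markers rose in 1 and fell in 1 of 5 genes, of which 4 were tested. Beside all these marker counts, 17.9% of all genes tested were higher in HFD and 14.5% lower. The part of any of these cell types in the collagen changes was not tested.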

How the data were processed

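Gene counts of 4 libraries were used as deposited. Per the submitters' processing notes the tools were HISAT, featureCounts version 1.5.0 and DESeq version 1.8.3 on build GRCm38, without roles or settings, and per the labels' protocols the kit was stranded. The authors' deposited values are whole-number counts per Ensembl gene, 55421 per library, of which 55240 matched a GENCODE M21 symbol. Totals were 56740720 to 64490097. Counts at multiples of 4 were 1.64 to 1.74 times as frequent as at neighbouring values up to 40, so a single count may be less precise than the totals give, and 12 counts were taken as the floor.

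Genes passing filterByExpr with a minimum count of 10 (21563) were scaled by TMM and tested for diet with edgeR 4.0.16 in R 4.3.3, with no block for the replicate number. The threshold was 0.05 on p after Benjamini-Hochberg adjustment. The SE is the log2 change divided by the square root of F. CPM values and their sums use TMM-scaled totals. Lengths are the union of annotated exons. Alternatives were DESeq2 1.42.0 (size factors, Wald test), limma-voom (limma 3.58.1), other filters, a replicate block, each library left out, other library sizes, counts divided by 4 and a 2-fold minimum.

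Members with a mean of at least 1 CPM are given with all values, the rest by range or counts. Pathway genes named were set by a list, except Mia3 and Tll1, named after their values were seen. Members, classes and lists were chosen with earlier results of these data known.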

Additional observations from a re-analysis of the deposited data

How the results depend on the processing

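A minimum change of 2-fold is given apart, since it drops every smaller change. In the other alternatives no called collagen gene changed sign, and 20 of the 25 higher and both lower genes stayed called wherever they were tested. Among the 17 pathway genes named with CPM values, P4hb was the 1 gene whose call changed in those other alternatives (log2 change -0.10). The alternatives were applied to these genes after seeing the data. Tll1, named for its low NCD counts, was not among the 17, and whether its call held is not given here. Collagen calls that were lost, or gained for Col28a1, stand beside their values in the report. The number of collagen genes called higher was 25 and ranged from 21 to 24 when 1 library was left out, and with a replicate block it was 23. Across genes, the deviations of replicates from their diet mean had a correlation of 0.00211 between the diets. With 2 libraries per diet, this value cannot tell whether the shared replicate numbers mark pairs. With the block 3252 genes were higher and 2583 lower, against 3860 and 3123 without it, and Col24a1 and Col17a1 lost their calls (adjusted p = 0.0527 and 0.115). Leaving out 1 library gave 2015 to 2174 genes lower in HFD, the lowest without HFD replicate 1. With a minimum change of 2-fold, 2160 genes were higher and 287 lower, and 21 collagen genes were higher and 1 lower, without Col13a1, Col4a1, Col4a2, Col18a1 and Col14a1. The log2 ratio of summed transmembrane genes was -0.42 and turned to 1.55 without Col13a1, a value that, in a check added after seeing the data, was 1.00 without NCD replicate 1 and 2.45 without NCD replicate 2. At 4-count spacing, depth limits what can be said of Col4a6, Col17a1, Col23a1, Col24a1 and Col28a1. When a diet kept 1 library, it was assumed to vary like the other diet.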
